A study of Mus musculus with 4 samples.

Results

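Transcription in progress was compared with and without FCCP in 3T3-L1 cells that carried a control siRNA (siCTL). It uses 2 of the 4 GRO-seq libraries of the study, siCTL with no FCCP and siCTL after 3 hours of FCCP, chosen by their labels, which give no dose. 3T3-L1 is a mouse preadipocyte line, and FCCP is a compound that uncouples mitochondrial respiration by carrying protons across the inner membrane. The other 2 libraries, siGPS2 without and with 3 hours of FCCP, came from the same line with an siRNA against GPS2, a transcriptional cofactor and the study's main subject, and are used only to set values beside the siCTL pair. Each group is 1 library, so differences below are between 2 libraries, with no replicates, and their intervals describe counting error alone.

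GRO-seq lets polymerases that are already engaged on DNA extend their RNA in isolated nuclei, and the labelled RNA is sequenced with its strand. A gene being transcribed therefore appears as a stretch of reads on 1 strand, from its start to beyond the end of its mature RNA. Polymerase often halts shortly after starting, so reads are usually dense at the start, and many promoters also send short transcripts in the opposite direction. Loss of the mitochondrial proton gradient is known to be relayed to the nucleus through stress kinases and transcription factors.

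Reads were counted by their 5′ end in strand-specific windows of 10 kb on the 19 autosomes, using reads with a deposited quality score of 10 or more. Windows with at least 40 such reads in the 2 libraries together numbered 44805 of the 161454 windows with any read. They held 87.1% of the 3342833 usable reads of siCTL and 88.2% of the 3352850 of siCTL with FCCP, and the median window held 48 reads in the former and 47 in the latter. The ratio of the libraries over windows had a median of exactly 1, so no rescaling was needed. All files hold the same number of reads to within 2, so a change in total transcription could not be seen. The read names place siCTL on sequencing run 183, lane 8, and siCTL with FCCP on run 189, lane 1, which also holds both siGPS2 libraries. Within the siCTL pair, FCCP and sequencing run cannot be told apart. The siGPS2 libraries stand apart from the siCTL ones: 54.7% and 55.1% of their reads had a score of 10 or more, against 81.9% and 82.3%, and 1.66% and 1.36% of used reads shared a 5′ end, against 0.0901% and 0.135%. The part of this in the siGPS2 values set beside the siCTL pair was not tested. Positions are in mm8. With no annotation of that build, regions are named by position, genes were not assigned to them, and the markers of preadipocytes and the knock-down of GPS2 were not analysed here.

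Transcription differed in both directions between the 2 libraries, by modest factors over most of the windows involved. A window is called here when its ratio, with 0.5 added to each count, reached 1.5-fold and the 99.9% exact interval of that ratio left out a ratio of 1. By this rule 2304 windows were higher with FCCP, 5.14% of all, and 1875 were lower, 4.18%. The median higher window had 49 reads without FCCP and 107 with it, 2.18-fold, and the median lower window had 88 and 38, 2.22-fold lower. With reads of 1 library and strand within 10 bp counted once, 1528 windows were higher and 1025 lower, and with a minimum of 100 reads 1778 and 1176. Larger factors were rare. At least 4-fold higher were 172 windows (0.384% of all) and at least 4-fold lower 92 (0.205%), and at 8-fold there were 34 (0.0759%) and 4 (0.00893%). The tail on the higher side therefore reached further than that on the lower side.

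**Figure D1:**
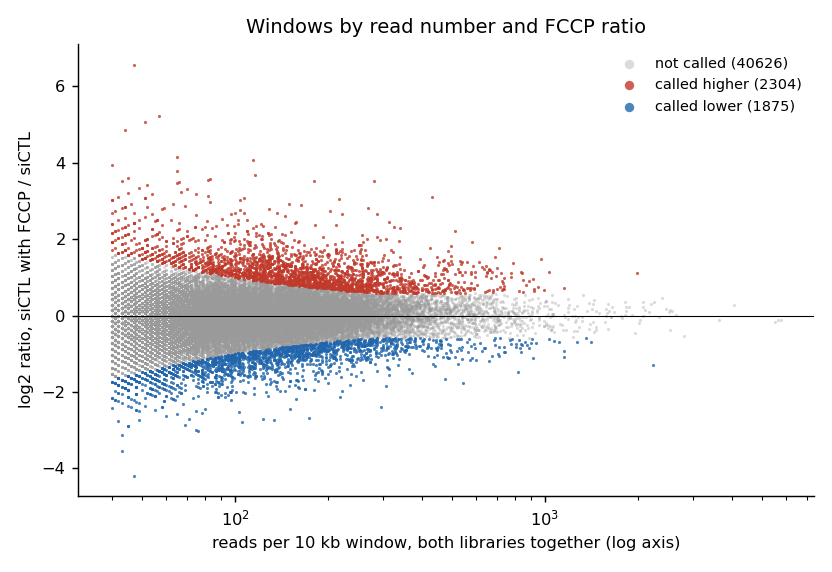
Each point is a strand-specific 10 kb window, with its reads in the siCTL pair on a log axis against the log2 ratio of siCTL with FCCP to siCTL (0.5 added to each count). The 2304 windows called higher and the 1875 called lower flank a cloud centred on 0 that narrows as reads increase.

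The shares were close on both strands. On the plus strand 4.99% of windows were higher and 4.3% lower, and on the minus strand 5.3% and 4.06%. Among chromosomes the share higher ran from 3.10% on chromosome 5 to 8.71% on chromosome 3, and the share lower from 1.41% on chromosome 13 to 6.25% on chromosome 15. Reads summed per chromosome ran from 0.935 times the siCTL number on chromosome 7 to 1.11 times on chromosome 13. Windows with more reads have narrower intervals, and the share called differed by reads. Of windows with 40 to 59 reads 1.67% were called higher and 2.35% lower, and of those with 400 to 799 reads 14.5% and 7.59%. In the 221 windows with 800 or more reads the order was the other way, with 7.24% higher and 10.9% lower.

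Windows called higher often lay side by side on a strand. The 2304 windows formed 1161 runs of adjoining windows, of which 227 held 3 or more windows and 20 held 10 or more. Runs of 3 or more took 51.2% of the higher windows, and 32.3% stood alone. Of the lower windows, 52.5% stood alone. Their runs numbered 1289, of which 108 reached 3 windows and 7 reached 10. Standing alone means only that no adjoining window was called. Stretches of 1 window with at least 40 reads held 140 lower and 68 higher windows, and those of 2 to 4 windows 567 and 427. Short stretches limit the length of a run, and the part of this was not tested.

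The longest runs that were higher each covered 170 to 200 kb. On chromosome 13, plus strand, 105400001 to 105600000 went from 572 reads in siCTL to 1831 with FCCP, 3.20-fold (log2 1.68, 95% interval 1.54 to 1.82). All 20 windows of this run were higher, with log2 ratios from 1.31 to 2.08. On chromosome 10, plus strand, 5050001 to 5250000 had 509 reads without FCCP and 1571 with it, 3.08-fold (1.62, 1.48 to 1.77). It began where reads began: the 50 kb upstream held 0 reads in siCTL and 1 with FCCP. The 50 kb downstream, outside the stretch, held 84 and 245 reads. The most heavily transcribed of these runs was chromosome 3, minus strand, 142160001 to 142340000, with 3136 reads in siCTL and 7186 with FCCP, 2.29-fold (1.20, 1.14 to 1.26). It filled a whole transcribed stretch of 180 kb, with 5 and 10 reads in the 50 kb before it and 15 and 34 in the 50 kb after.

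The other 5 of the 8 longest were of like size. Chromosome 4, plus strand, 149120001 to 149310000 had 1218 reads without FCCP and 2668 with it, 2.19-fold. It took up the front of a stretch of 360 kb, whose remaining 17 windows were not part of the run. The 50 kb after the run were higher too, with 276 and 483 reads. Chromosome 1, plus strand, 181800001 to 181980000 had 872 reads without FCCP and 2079 with it, 2.38-fold. Chromosome 1, minus strand, 172540001 to 172710000 went from 645 to 1717, 2.66-fold. Both runs on chromosome 1 lie far apart and on opposite strands. Their windows each had to pass 1.5-fold, so alike factors follow in part from the choice of runs. Chromosome 13, plus strand, 110800001 to 110970000 had 911 reads without FCCP and 2078 with it, 2.28-fold. Chromosome 18, plus strand, 23640001 to 23810000 had 514 and 1418, 2.76-fold, with 0 and 3 reads on the opposite strand of the same interval. All 8 runs began in the first or second window of their stretch, in the direction of transcription.

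The longest runs that were lower covered 90 to 150 kb. On chromosome 7, plus strand, 96400001 to 96550000 had 1130 reads in siCTL and 382 with FCCP, 2.96-fold lower (log2 -1.56, 95% interval -1.74 to -1.40). This run began 1 window into a stretch of 310 kb, and the 50 kb after it were lower too, with 286 and 86 reads. Chromosome 4, plus strand, 106410001 to 106550000 had 871 reads without FCCP and 248 with it, 3.51-fold lower (-1.81, -2.02 to -1.61), and chromosome 3, minus strand, 52060001 to 52190000 had 757 and 215, 3.52-fold lower (-1.81, -2.04 to -1.60). These were the steepest of the 8. On the other strand of chromosome 3, 129520001 to 129640000 had 1148 reads without FCCP and 346 with it, 3.31-fold lower, and was an isolated stretch with 0 reads in either library over the 50 kb before it. Chromosome 11, plus strand, 117080001 to 117190000 had 1188 reads without FCCP and 446 with it, 2.66-fold lower, and chromosome 10, plus strand, 68990001 to 69080000 had 931 and 365, 2.55-fold lower. The run on chromosome 10 lay inside a stretch of 500 kb that was lower on both sides of it. The 50 kb before it went from 261 to 115 reads and the 50 kb after it from 350 to 141.

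The remaining 2 were heavily transcribed and differed less. Chromosome 15, plus strand, 27410001 to 27550000 was the second most read of the 16 runs, with 5690 in siCTL and 3035 with FCCP. Its factor was 1.87 (log2 -0.91, 95% interval -0.97 to -0.84), and its 14 windows lay between -1.13 and -0.68. Chromosome 6, minus strand, 94560001 to 94670000 had 1246 reads without FCCP and 650 with it, 1.92-fold lower, over its whole stretch of 110 kb. The same reads picked these runs and measured them, so their factors are on the large side.

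**Figure D2:**
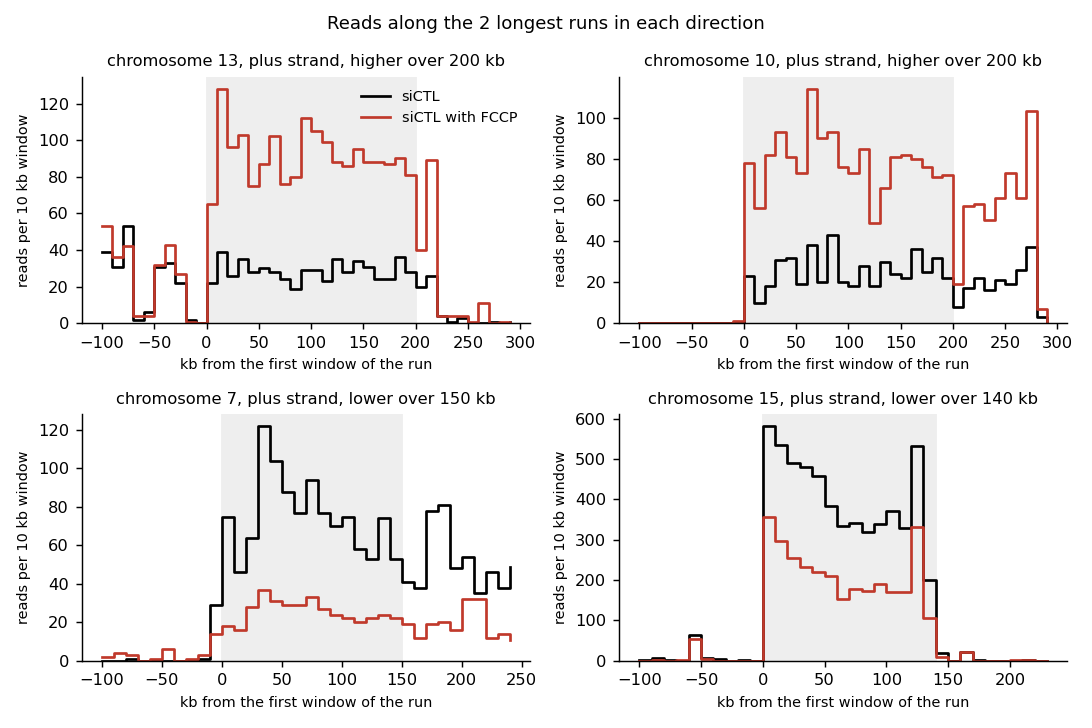
Reads per 10 kb window in siCTL (black) and siCTL with FCCP (red) are plotted against distance in the direction of transcription from the first window of 4 runs, each shaded over its length. In the upper panels the red line lies above the black one across 200 kb (572 against 1831 reads and 509 against 1571 in sum), and in the other panels it lies under it (1130 against 382 and 5690 against 3035).

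Runs of 5 or more windows numbered 87 on the higher side and 37 on the lower side, with median factors of 2.37 and 2.41. Of the 87, 60 began in the first 2 windows of their stretch, 46 ended in its last 2, and 23 covered it whole. Of the 37, these numbers were 25, 21 and 12. These runs thus usually took in the front of a transcribed stretch, and fewer of them reached its far end. A run stops at the first window that misses the calling rule, so its ends do not mark where the difference ended. In the shortest stretches a run of 5 windows has to reach both ends, and no expected share was computed. The opposite strand over the 87 higher runs had 2205 reads in siCTL and 2310 with FCCP (log2 0.07), and over the 37 lower runs 1111 and 937 (-0.25). It held few reads, 5.01% and 2.68% of those of the runs.

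Outside those runs, the 8 windows whose 99.9% interval lay furthest above a ratio of 1 were in stretches of at most 90 kb, some of them of a single window. Chromosome 6, minus strand, 66960001 to 66970000 had 22 reads without FCCP and 258 with it, 11.5-fold (log2 3.52, 95% interval 2.92 to 4.25). It was a stretch of its own, with 2 reads in either library over the 50 kb upstream and 0 and 2 downstream. Chromosome 2, plus strand, 119040001 to 119050000 was likewise alone and had 45 reads without FCCP and 388 with it, 8.54-fold (3.09, 2.66 to 3.59). Chromosome 2, minus strand, 77750001 to 77760000 had 6 reads without FCCP and 108 with it, 16.7-fold (4.06, 3.00 to 5.65). It was the first window of a stretch of 90 kb whose next 50 kb held 4021 and 4966 reads, so this sparse window differed far more than those. In the siGPS2 pair it had 16 and 26 reads (log2 0.68, -0.25 to 1.70), an interval that includes 0. Another first window of a stretch on that strand of chromosome 2, 152030001 to 152040000, had 14 reads without FCCP and 166 with it, 11.5-fold. The other windows of this paragraph had 62 and 150, 90 and 269, and 38 and 94 reads in the siGPS2 pair.

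Some intervals had very few reads in siCTL without FCCP. Chromosome 1, minus strand, 136200001 to 136210000 had 0 reads in siCTL and 47 with FCCP. Taking 3 reads per library as the floor gives 15.7-fold, which is not a lower bound. The 95% interval of the log2 ratio began at 3.61 and had no upper end. Together with the adjoining window, this window had 5 and 93 reads. Chromosome 15, minus strand, 62390001 to 62400000 had 1 and 56 reads (log2 5.24, 95% interval 3.27 to 11.14). On chromosome 3, minus strand, 50490001 to 50540000 was a run of 5 windows that had 24 reads without FCCP and 340 with it, 13.9-fold (3.80, 3.23 to 4.49). Within it, 50500001 to 50510000 had 1 and 50 reads (log2 5.07, 95% interval 3.10 to 10.98), and 50530001 to 50540000 had 8 and 108. Nearly all siCTL-pair reads in these places came from the library with FCCP. Reads were present there in siGPS2 without FCCP: the window on chromosome 1 had 7 reads there and 49 with FCCP, that on chromosome 15 had 11 and 25, and the run on chromosome 3 had 42 and 146.

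Most of the steepest windows on the lower side lay inside short transcribed stretches. On chromosome 18, minus strand, 60710001 to 60770000 was a run of 6 windows that went from 400 reads to 54, 7.35-fold lower (log2 -2.88, 95% interval -3.33 to -2.48). Its named windows, 60720001 to 60730000 and 60730001 to 60740000, went from 150 to 23 and from 68 to 8. Chromosome 12, minus strand, 15810001 to 15850000 had 400 reads without FCCP and 78 with it, 5.10-fold lower, with 116 and 17 of them in the window from 15820001. Chromosome 6, plus strand, 82980001 to 83020000 went from 587 to 135, 4.34-fold lower, with 249 and 47 in the window from 83000001. Each of these 3 was lower over 40 to 60 kb, not at 1 point. Chromosome 5, plus strand, 149680001 to 149710000 went from 206 to 41 reads and chromosome 14, minus strand, 68890001 to 68940000 from 427 to 114. Of the windows that stood alone, chromosome 2, plus strand, 178400001 to 178410000 went from 45 to 2 reads (log2 -4.19, 95% interval -7.58 to -2.56), and chromosome 3, plus strand, 96640001 to 96650000 from 67 to 8.

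Neighbouring windows hold different reads, so a neighbour's ratio took no part in calling a window. Each called window was paired with each same-strand neighbour, so a window between 2 called ones counts in 2 pairs. Neighbours of higher windows had a median log2 ratio of 0.90 over 3986 pairs, and 97.4% lay above 0. Those of lower windows had a median of -0.82 over 2856 pairs, and 94.6% lay below 0. The neighbour was itself called the same way in 57.4% and 41.0% of pairs, and the other way in 2 pairs on each side. Of all windows, each counted once, 5.14% and 4.18% were called. The number of pairs called the same way follows from the run lengths above. The opposite strand at the same position followed only weakly. There the median was 0.20 over 187 windows facing a higher window and -0.30 over 221 facing a lower one.

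At the same distance, windows of 1 stretch had more alike ratios than windows of different stretches. A stretch is a set of consecutive windows of 1 strand that each passed the minimum of 40 reads. Pearson's r between the log2 ratios of adjoining windows was 0.69 over 34389 pairs. Within a stretch it was still 0.63 at 100 kb (6502 pairs) and 0.58 at 200 kb (1726 pairs), and fell to 0.39 at 300 kb (570 pairs). Between windows of different stretches on the same strand it was 0.24 at 100 kb (7056 pairs) and 0.20 at 200 kb (7185 pairs). Between opposite strands it was 0.22 at the same position (2661 pairs) and 0.12 at 100 kb (6592 pairs). The points share both libraries and their depth, and pairs overlap, so these values are a description. Distant pairs within a stretch come only from long stretches, whose windows hold more reads. The median was 112 reads in stretches of 20 or more windows and 54 in those of 1 window. The part of read number in r was not tested.

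**Figure D3:**
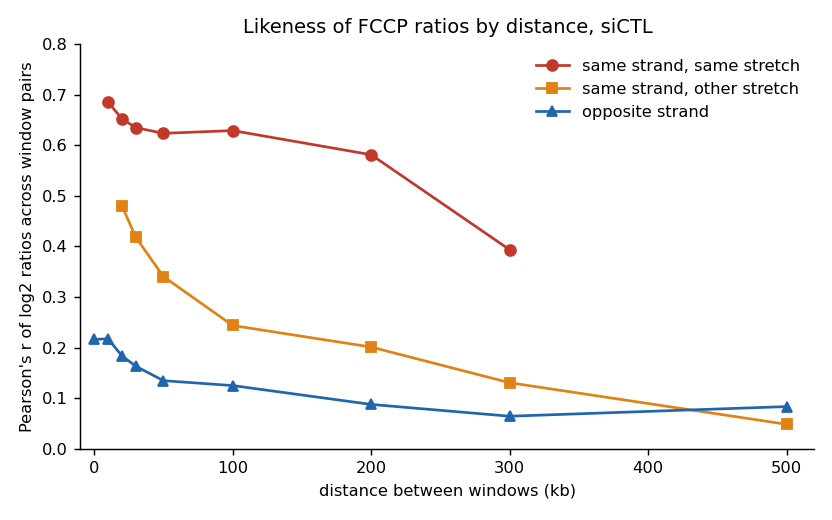
Pearson's r between log2 FCCP ratios of window pairs in the siCTL pair is plotted against the distance between the windows in kb, for pairs within a stretch, pairs in different stretches of 1 strand, and pairs on opposite strands. Within a stretch r is 0.58 at 200 kb, where it is 0.20 between stretches and 0.09 between strands, and it falls to 0.39 at 300 kb.

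The 44805 windows fell into 10416 stretches, 3075 of them of 5 or more windows, 1117 of 10 or more, and the longest of 880 kb. Stretches of 5 or more windows were measured over their inner windows, without the first and the last. By the calling rule above, 299 of these stretches were higher (9.72%) and 241 lower (7.84%), and the median log2 ratio of all 3075 was 0.04. Of the 962 stretches with any called window, 8 held windows called in both directions. A stretch can join neighbouring genes of 1 strand. On chromosome 1, minus strand, 171780001 to 171950000 had 9 higher windows between its second and its 13th window and 2 lower ones in its 16th and 17th. On chromosome 11, plus strand, 105000001 to 105180000 had 6 lower windows between the 12th and the 17th, and 1 higher at the 10th.

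Among stretches of at least 100 kb, the highest ratio was on chromosome 9, plus strand, 64610001 to 64730000, with 222 reads in siCTL and 1053 with FCCP, 4.73-fold (log2 2.24, 95% interval 2.04 to 2.46). All of its 12 windows were called higher. Chromosome 3, minus strand, 127140001 to 127340000 had 269 reads without FCCP and 1098 with it, 4.08-fold (2.03, 1.84 to 2.23), with 19 of 20 windows called. Chromosome 6, plus strand, 15670001 to 15770000 went from 438 to 1405, 3.21-fold. The next highest contains the run on chromosome 13 that starts at 105400001. The 4 lowest contain the runs on chromosomes 4, 3 (both strands) and 7 given above. The last of them, 96390001 to 96700000 on the plus strand of chromosome 7, went from 1895 to 699 reads over 310 kb, with 23 of 31 windows called lower, while its opposite strand went from 98 to 357 reads.

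Calls became more frequent on the higher side in longer stretches. Of windows in a stretch of 1 window 2.01% were higher and 4.14% lower, and in stretches of 20 or more windows 8.20% and 3.65%. The median reads per window moved with this, from 54 to 112, and its part in the result was not tested. Inside stretches of 5 or more windows, 3.77% of first windows were higher, 6.87% of inner ones and 3.80% of last ones. For lower windows the shares were 3.09%, 3.72% and 4.07%. Reads differed by position as well: in siCTL the first windows held 175876, the second ones 225694 and the last ones 168384. The part of this in the shares was not tested. Between the last and the first window of a stretch the median difference of log2 ratios was -0.02 (95% order-statistic interval -0.05 to 0.01), and the last was above the first in 1504 of 3075. With 5 kb windows the difference was 0.03 (-0.01 to 0.07). With a minimum of 100 reads it was -0.05, and its interval (-0.08 to -0.02) then left out 0. Along the 212 stretches of 200 kb or more, each cut into 10 equal parts, summed reads had a log2 ratio of -0.01 in the first part, 0.05 in the second, 0.14 in the eighth and 0.07 in the last. The siGPS2 pair gave -0.03, 0.00, 0.07 and -0.04 at the same places.

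Close to the start of transcription the pattern was different. A start was placed within 20 kb of the front edge of each stretch, at the step in the pooled reads that best parted a sparse side from a dense one, and kept when the 10 kb before it had at most 15% of the density of the 10 kb after it. This gave 2657 starts. The first 0.5 kb held 15321 reads in siCTL and 9830 with FCCP, 1.56-fold lower (log2 -0.64, 95% interval -0.68 to -0.60). From 0.5 to 1 kb reads went from 14804 to 12239 (-0.27, -0.31 to -0.24), and from 1 to 2 kb from 28425 to 29222 (0.04). Beyond 2 kb the ratio was level, with log2 values of 0.09, 0.10, 0.08 and 0.08 at 2 to 5, 5 to 10, 10 to 20 and 20 to 30 kb. Summed over all starts, reads inside the stretch were thus fewer with FCCP in the first kb and slightly more numerous beyond it. The size of this difference rests on how starts are placed: with starts found on the siGPS2 libraries in place of the siCTL pair, the first 0.5 kb had a log2 ratio of -0.34 (-0.37 to -0.30). At the 2657 starts, the siGPS2 pair itself had 5019 and 3736 reads in the first 0.5 kb, a log2 ratio of -0.43.

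Single starts varied. In 255 of them the first 0.5 kb held at least 20 reads in the siCTL pair, and each library held at least 10 reads from 2 to 10 kb. In 204 of these (80%) the first 0.5 kb had a lower log2 ratio than the part from 2 to 10 kb. The median difference was -0.66, with quartiles of -1.15 and -0.11. The filter used reads of the same 0.5 kb that was compared, so a start dense in 1 library alone could pass. The share and the median therefore describe these 255 starts and not all 2657.

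Stretches grouped by their inner windows differed in how the start compared with the body, where the ratio of the body is the one that formed the groups. In the 260 starts whose inner windows were higher, reads from 5 to 10 kb went from 8292 to 15301 (log2 0.88) and those of the first 0.5 kb from 1155 to 1091 (-0.08, -0.20 to 0.04). In the 204 whose inner windows were lower, the first 0.5 kb went from 1328 to 691 reads (-0.94) and the part from 5 to 10 kb from 8427 to 4995 (-0.75). In the 2193 not called, the values were -0.67 and 0.07. The gap between the first 0.5 kb and the body was wide in stretches that were higher or not called, and narrow in those that were lower. Because the body formed the groups, this contrast is partly set by the grouping. The siGPS2 pair did not form the groups. Its log2 ratios for the first 0.5 kb and 5 to 10 kb were -0.30 and 0.49 in the higher group. They were -0.43 and 0.02 in the group not called, and -0.48 and -0.44 in the lower group.

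**Figure D4:**
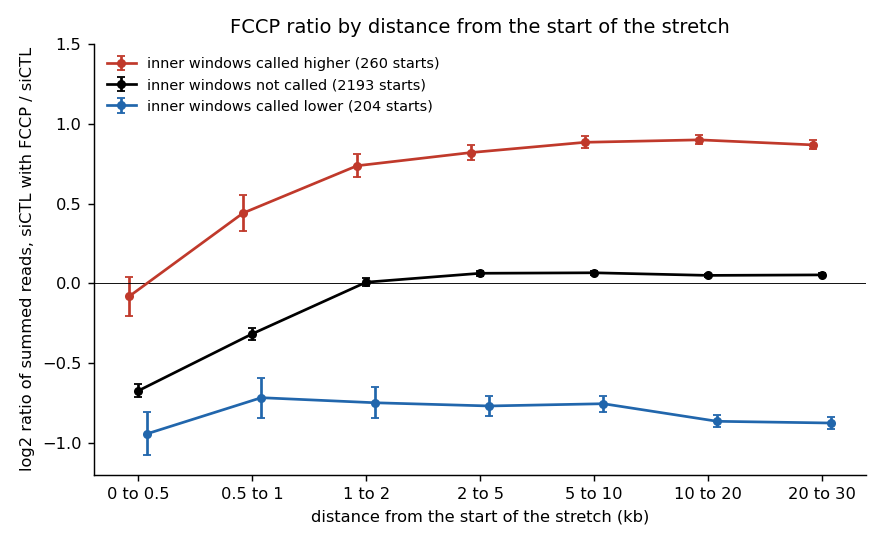
Log2 ratios of summed reads, siCTL with FCCP to siCTL, are plotted by distance in kb from the start of a stretch, with 95% counting intervals as bars, for stretches whose inner windows were called higher, not called, or called lower. The first 0.5 kb lies at -0.08, -0.67 and -0.94, and the upper and middle lines climb to 0.74 and 0.01 by 1 to 2 kb.

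Reads on the opposite strand upstream of the start were counted, where transcripts leaving in the other direction lie. Over all starts, the 5 kb upstream held 41879 such reads in siCTL and 43240 with FCCP (log2 0.05). The nearest 1 kb held 16119 and 16267 (0.01). The 0.5 kb that begins 10 kb upstream still held 2013 and 2002, against 9487 and 8949 in the 0.5 kb next to the start. Other transcription on that strand was not set apart. The upstream reads moved with the body of the stretch, by a smaller factor. That factor therefore does not describe transcripts leaving the start alone. Where inner windows were higher, these upstream reads went from 3262 to 4155 (0.35, 95% interval 0.28 to 0.42). Where inner windows were lower, they went from 2502 to 1936 (-0.37, -0.46 to -0.28), and where neither was called from 36115 to 37149 (0.04). Opposite-strand reads inside the first kb of the stretch were fewer with FCCP over all starts, 9315 and 7735 (-0.27). This did not hold where inner windows were higher: there the first 0.5 kb had 518 and 555 opposite-strand reads (0.10, -0.08 to 0.28) and the next 0.5 kb 258 and 316 (0.29, 0.05 to 0.54). On the same strand that next 0.5 kb had 1129 and 1532 reads in these stretches (0.44).

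Outside a stretch, the windows that failed the minimum of 40 reads kept the direction of the stretch on both sides. The window just before a stretch went from 1388 to 1812 reads (log2 0.38) where inner windows were higher. It went from 1841 to 990 (-0.89) where they were lower. Past the end, where inner windows were higher, the next window went from 2142 to 3144 reads (log2 0.55). The one after it went from 656 to 1135 (0.79). Where inner windows were lower, these went from 2206 to 1329 (-0.73) and from 635 to 379 (-0.74). The siGPS2 pair had 0.70 and 0.80 for the former set and -0.34 and -0.27 for the latter. Over all 3075 stretches the next window held 25512 and 24185 reads (-0.08, 95% interval -0.10 to -0.05) in the siCTL pair. In the siGPS2 pair it held 23867 and 26805 (0.17, 0.14 to 0.19). The difference between the pairs was not tested.

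The siGPS2 pair shares no library with the siCTL pair and lies on 1 sequencing lane. Of the windows called higher in siCTL, 2093 had at least 40 reads there. Their median log2 ratio was 0.54, against 1.08 in siCTL, and 90.9% lay above 0. Of the windows called lower 1325 could be compared, with a median of -0.49 against -1.03 and 88.9% below 0. Over all 31722 windows measured in both pairs, 49.9% lay above 0 and 46.9% below 0 in the siGPS2 pair. Because the windows were chosen in siCTL, those values are on the large side there, and the smaller siGPS2 values do not measure a difference between the siRNAs.

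Each of the 16 longest runs had the same direction in the siGPS2 pair. Chromosome 10, plus strand, 5050001 to 5250000 was the closest among the higher ones, with 440 and 1085 reads there, 2.46-fold. On chromosome 13, plus strand, 105400001 to 105600000 had 564 and 792 reads, 1.40-fold, where siCTL gave 3.20-fold. Among the lower runs, chromosome 10, plus strand, 68990001 to 69080000 had 528 and 238 reads, 2.22-fold lower, and chromosome 11, plus strand, 117080001 to 117190000 had 363 and 246, 1.47-fold lower. The same held beyond these 16: of runs of 5 or more windows, 87 of 87 higher and 37 of 37 lower ones kept their direction.

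**Figure D5:**
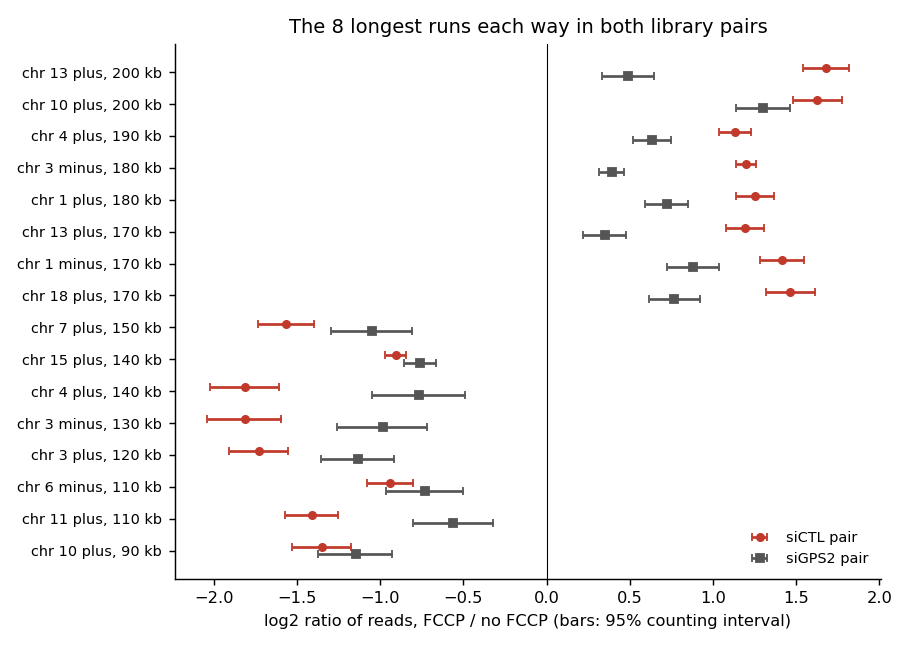
Log2 ratios of reads with FCCP to reads without are plotted for the 8 longest runs called higher and the 8 called lower in siCTL, in the siCTL pair (circles) and the siGPS2 pair (squares), with 95% counting intervals. All 16 squares lie on the same side of 0 as their circles and nearer to it.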

How the data were processed

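The deposited GRO-seq files of 3T3-L1 cells list aligned reads singly, each with its position, its strand and a score whose highest value is 42, which is taken here as mapping quality. According to the submitters' processing notes, Bowtie and HOMER were used and the build is mm8; versions, roles and any thinning by the authors are not stated there. Files hold 4199999 or 4200001 readable lines. Reads of score 10 or more on autosomes were counted by 5′ end in 10 kb strand-specific windows with Python 3.11.15, numpy 2.4.6, pandas 2.3.3 and scipy 1.17.1. Chromosomes M, X and Y and random contigs were left out. The scale was the median ratio over 40174 windows with at least 20 reads in both libraries. Calls used 1.5-fold and the exact Clopper-Pearson interval (99.9%) of the share of reads; printed intervals are 95%. The siCTL pair has 1 library a side and so no residual spread of its own, and no test across samples was made. Alternatives were other scales, quality minimums, read minimums, window sizes and grids, reads within 10 bp counted once, 2-fold, an interval from 200 bp bins and, added after seeing the data, starts found on the siGPS2 libraries. The calling rule was tried on simulated counts with counting error alone, which do not cover variation between libraries. Named regions are the 8 longest runs and, outside them, the 8 windows with the interval furthest from 1 in each direction, and the 4 highest and 4 lowest stretches of 100 kb or more; the 2 stretches holding windows called both ways were picked after their values were seen. Members, rules and lists were chosen with earlier results of these data known. Sequences were not printed because no genome in mm8 was at hand.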

Additional observations from a re-analysis of the deposited data

Results flagged for a closer look

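Chromosome X was left out of the comparison. It held 90098 usable reads in siCTL and 95953 with FCCP, a ratio of 1.06 (log2 0.09, 95% counting interval 0.08 to 0.10), above the level without FCCP. Ratios of the autosomes ran from 0.935 to 1.11, so this value lies inside their range.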

How the results depend on the processing

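Of 70 alternative values, 45 stayed within the set margins, 24 moved beyond them and 1 changed sign. Leaving out a library leaves no siCTL pair, so it gave no value. A fit over all 4 libraries with the siRNA as a block, which would have 1 residual degree of freedom, was not run. Counting reads within 10 bp once gave 1528 higher and 1025 lower windows, a median log2 ratio of -0.86 beside lower windows, 0.39 and -0.34 for higher and lower windows in the siGPS2 pair, -0.50 in the first 0.5 kb of stretches and 0.073 at 2 to 10 kb. A 2-fold minimum gave 1453 and 1219 windows. A minimum of 100 reads gave 1176 lower windows, 0.85 and -0.71 beside higher and lower windows, -0.054 for last minus first window, and 0.47 for higher windows in the siGPS2 pair. No minimum (1 read) gave 0.93, -0.85 and 0.57 for the neighbours of higher and of lower windows and for the siGPS2 pair. Windows of 5 kb gave 0.99 and -0.85 for neighbours, -0.53 for lower windows in the siGPS2 pair, and 0.032 for last minus first window, the value that changed sign. Using all reads gave -0.44 for lower windows in the siGPS2 pair. Reads of quality 42 gave 0.93 beside higher windows and 0.084 at 2 to 10 kb. Starts found on the siGPS2 libraries, an alternative chosen after seeing the data, gave -0.34 for the first 0.5 kb. For the counts, fewer windows tested or fewer reads counted follow from the settings; otherwise the cause was not tested. An interval from the spread between 200 bp bins gave 2335 higher and 1987 lower windows, and 3726 windows were called by both intervals. Depth limits single windows: the median window had 48 and 47 reads.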
